A study of Mus musculus with 4 samples.

Results

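The NF-kB family of transcription factors and the proteins that carry signals to it were followed by RNA through the maturation of dendritic cells (DCs) in the resting mouse spleen. The set was chosen by gene symbol and held 34 of the 55385 genes of the table: 5 subunits, 6 inhibitors and atypical I kappa B proteins, 6 kinases, 10 adaptors and ubiquitin ligases, and 7 feedback regulators, deubiquitinases and TNF-induced genes. All 34 symbols were found and all 34 passed the filter on low counts. Ikbke, a kinase related to TBK1, passed it through T and NK cells and was close to 0 in every DC class.

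The samples were spleen cells of wild-type (WT) C57BL6 mice in steady state, with no knockout or treated group among the samples used here, profiled by CITE-seq, which counts messenger RNA molecules and antibody barcodes in the same cell. Per the labels, DCs of 2 WT mice were enriched, stained with 160 barcoded antibodies and 9 isotype controls, and sorted so that type 1 conventional DCs (cDC1, which take up dying cells and present to CD8 T cells) outnumbered type 2 conventional DCs (cDC2, which present mainly to CD4 T cells) and random live cells. The 2 GEO replicates, here libraries 1 and 2, each gave an RNA and an antibody library. Every comparison was therefore between cell classes within the same 2 libraries.

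NF-kB dimers are held in the cytoplasm by I kappa B proteins. In the canonical branch the IKK complex (Chuk, Ikbkb and the scaffold Ikbkg) marks I kappa B for degradation and frees dimers of Rela, Rel and Nfkb1 within minutes. In the noncanonical branch, used by CD40, lymphotoxin beta receptor and other TNF receptor family members, the kinase NIK (Map3k14) builds up once Traf2, Traf3, Birc2 and Birc3 stop degrading it, and Chuk then drives the processing of Nfkb2, the partner of Relb. Several of these genes, among them Nfkbia, Tnfaip3, Nfkb2 and Relb, are known targets of NF-kB itself, and Relb is needed for parts of the cDC2 compartment of the mouse spleen.

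The promoters of members that rose most are shown because many genes of this family carry binding sequences for NF-kB next to their own start. Sequences are RefSeq promoters of build GRCm38.p6, 5′ to 3′ on the gene's strand, from 250 bases before to 50 after the start, with matches to the kB consensus on either strand in capitals. Among the 4 largest risers (Tnip3, Relb, Traf1 and Birc2) and the steadiest subunit (Nfkb1), Tnip3, Traf1 and Birc2 had an entry. Nfkb2 and Nfkbia were added after their values were seen, as the noncanonical subunit and the main inhibitor.
Tnip3 (chr6:65590148-65590447, plus strand): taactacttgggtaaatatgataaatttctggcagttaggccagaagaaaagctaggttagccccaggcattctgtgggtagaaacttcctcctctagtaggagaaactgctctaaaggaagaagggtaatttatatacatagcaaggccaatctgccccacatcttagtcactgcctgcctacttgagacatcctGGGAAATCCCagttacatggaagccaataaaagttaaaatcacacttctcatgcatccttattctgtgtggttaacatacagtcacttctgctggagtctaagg
Traf1 (chr2:34961723-34962022, minus strand): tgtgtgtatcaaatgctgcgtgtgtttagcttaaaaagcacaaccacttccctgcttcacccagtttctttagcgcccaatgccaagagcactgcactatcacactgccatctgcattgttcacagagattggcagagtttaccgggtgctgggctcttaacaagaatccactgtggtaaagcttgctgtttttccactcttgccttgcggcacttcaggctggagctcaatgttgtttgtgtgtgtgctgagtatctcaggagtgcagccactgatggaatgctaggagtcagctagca
Birc2 (chr9:7837008-7837307, minus strand): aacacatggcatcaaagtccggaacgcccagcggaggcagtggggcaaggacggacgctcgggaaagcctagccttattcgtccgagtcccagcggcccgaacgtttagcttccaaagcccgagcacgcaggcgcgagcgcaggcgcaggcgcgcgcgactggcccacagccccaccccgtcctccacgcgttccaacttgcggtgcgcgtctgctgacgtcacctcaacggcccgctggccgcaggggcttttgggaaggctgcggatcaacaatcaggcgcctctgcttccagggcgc
Nfkb2 (chr19:46304487-46304786, plus strand): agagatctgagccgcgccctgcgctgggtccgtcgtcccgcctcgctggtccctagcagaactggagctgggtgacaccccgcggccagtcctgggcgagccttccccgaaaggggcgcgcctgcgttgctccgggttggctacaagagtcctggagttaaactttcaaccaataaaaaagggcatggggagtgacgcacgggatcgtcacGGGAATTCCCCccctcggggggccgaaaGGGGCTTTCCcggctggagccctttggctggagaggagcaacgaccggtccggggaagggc
Nfkbia (chr12:55492598-55492897, minus strand): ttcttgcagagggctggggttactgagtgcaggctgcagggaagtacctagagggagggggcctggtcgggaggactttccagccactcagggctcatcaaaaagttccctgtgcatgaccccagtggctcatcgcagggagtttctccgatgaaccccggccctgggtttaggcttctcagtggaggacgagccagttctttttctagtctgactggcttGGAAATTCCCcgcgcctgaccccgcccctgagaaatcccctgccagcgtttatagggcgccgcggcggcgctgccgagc

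The Tnip3 promoter held 1 match, which began 54 bases before the start, and that of Nfkbia held 1 match, 29 bases before it. Nfkb2 held 3 matches in this window, from 39 to 11 bases before the start, of which 2 overlap, and the windows of Traf1 and Birc2 held none. Of the 29 members with a promoter entry 13 had a match, or 44.8%, against 5.14% of all 27025 genes with an entry. The matched members were Tank, Bcl10, Tnip3, Bcl3, Nfkbid, Cyld, Tnfaip3, Rel, Tnip1, Nfkbia, Traf3, Nfkbie and Nfkb2. A match describes letters and is not a measured binding site. Nfkb1, Relb, Nfkbiz, Ikbkb and Malt1 had no entry.

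Cells were assigned by counts of unique molecular identifiers (UMIs, each standing for a captured molecule) rather than by clusters. A cDC1 had at least 3 UMIs of the XCR1 antibody and at most 2 of the CD172a antibody, and a cDC2 the reverse, with at least 10 UMIs of H2-Ab1 RNA, none of Cd79a, Cd3e, Ms4a1 or Siglech and at most 1 of C1qa. Immature cells had 0 UMIs of Ccr7 RNA, the receptor that guides maturing DCs to T cell zones. Intermediate cells had at least 2 Ccr7 and at most 1 of Fscn1, an actin bundler of mature DCs, and late cells at least 5 Ccr7 and at least 2 Fscn1. The intermediate and late gates overlap in Ccr7. Only 69 and 108 cells of the cDC1 antibody gate had 2 to 4 Ccr7 UMIs, fewer than the 179 and 236 intermediate cDC1. Many intermediate cDC1 thus reached the late Ccr7 threshold and were set apart from late cells by Fscn1. The names, and the steps between them, stand for these gates and not for time.

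In libraries 1 and 2 respectively there were 4871 and 7392 immature, 179 and 236 intermediate, and 103 and 125 late cDC1. For cDC2 the numbers were 1260 and 1384, 300 and 278, and 55 and 60. T cells numbered 790 and 664, B cells 154 and 168, and NK cells 319 and 460. The table held 31790 barcodes, of which 28142 cells were kept, and 61 barcode sequences occurred in both libraries. Median depth was 9202 and 8120 UMIs in immature cDC1, 6514 and 6199 in late cDC1, and between 3655 and 3973 in the 3 cDC2 classes.

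Between cDC1 and cDC2 the classes followed their markers. The 9 cDC1 marker genes summed to 4295 and 4740.3 UMIs per 1000000 RNA UMIs of the class (CPM) in immature cDC1 against 932 and 1032 in immature cDC2, and to 1675 and 2445 in late cDC1 against 577 and 899.9 in late cDC2. In NK cells the same list summed to 1831 and 1745, so it does not tell late cDC1 from NK cells. In B cells it summed to 828 and 926. Sirpa, which encodes CD172a, stood at 1.39 and 6.99 CPM in late cDC1 and 113 and 127 in late cDC2. Xcr1 RNA stood at 488 and 565 CPM in immature and 115 and 157 in late cDC1, against 28.2 and 75.7 in late cDC2 and 12 and 14 in T cells, which are not known to make it. Ms4a1, a B cell gene, was at 51.5 and 29.1 CPM in late cDC1 against 14.9 and 11.2 in immature cDC1, and the 6 B cell markers summed to 54.3 and 78 against 19.4 and 14.1. Without any cell holding lymphocyte UMIs, 28 in place of 29 members passed the test of late against immature cDC1, with 4618 in place of 4915 genes in all. The 12 mature DC markers, of which Relb and Birc2 are themselves members, summed to 563 and 524 CPM in immature cDC2 against 126 and 135 in immature cDC1, so the immature classes were not equally low in maturity markers.

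Relb and Nfkb2, the subunits of the noncanonical branch, had the largest rises of the 5 subunits. Relb, the noncanonical subunit that pairs with p52, stood at 28.5 and 33.3 CPM in immature cDC1 of libraries 1 and 2, at 274 and 276 in intermediate and at 772 and 631 in late cDC1. No library of a later class overlapped one of an earlier class. The change from immature to late was log2 4.74 (SE 0.12, adjusted p = 4.9e-21), or 26.7-fold, by edgeR's quasi-likelihood test with Benjamini-Hochberg adjustment over 10107 genes. Nfkb2, the precursor of p52, went from 40.3 and 46.7 through 133 and 131 to 266 and 317 CPM, a change of log2 2.98 (SE 0.12, adjusted p = 3.5e-17).

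The canonical subunits had smaller log2 changes. Rel, the c-Rel subunit, went from 205 and 251 through 556 and 493 to 722 and 757 CPM (log2 1.94, SE 0.10, adjusted p = 1.0e-14). Rela, the p65 subunit, went from 39.8 and 44.5 through 47.7 and 63 to 82.1 and 112 CPM (log2 1.44, SE 0.16, adjusted p = 2.2e-08). Nfkb1, the precursor of p50, stood at 89.7 and 95.4 CPM in immature, 137 and 122 in intermediate and 113 and 114 in late cDC1, and its change was the smallest of the 5 subunits (log2 0.53, SE 0.13, adjusted p = 0.00135). With library totals alone as scaling, or with no filter on low counts, Nfkb1 no longer passed in late against immature cDC1.

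**Figure D1:**
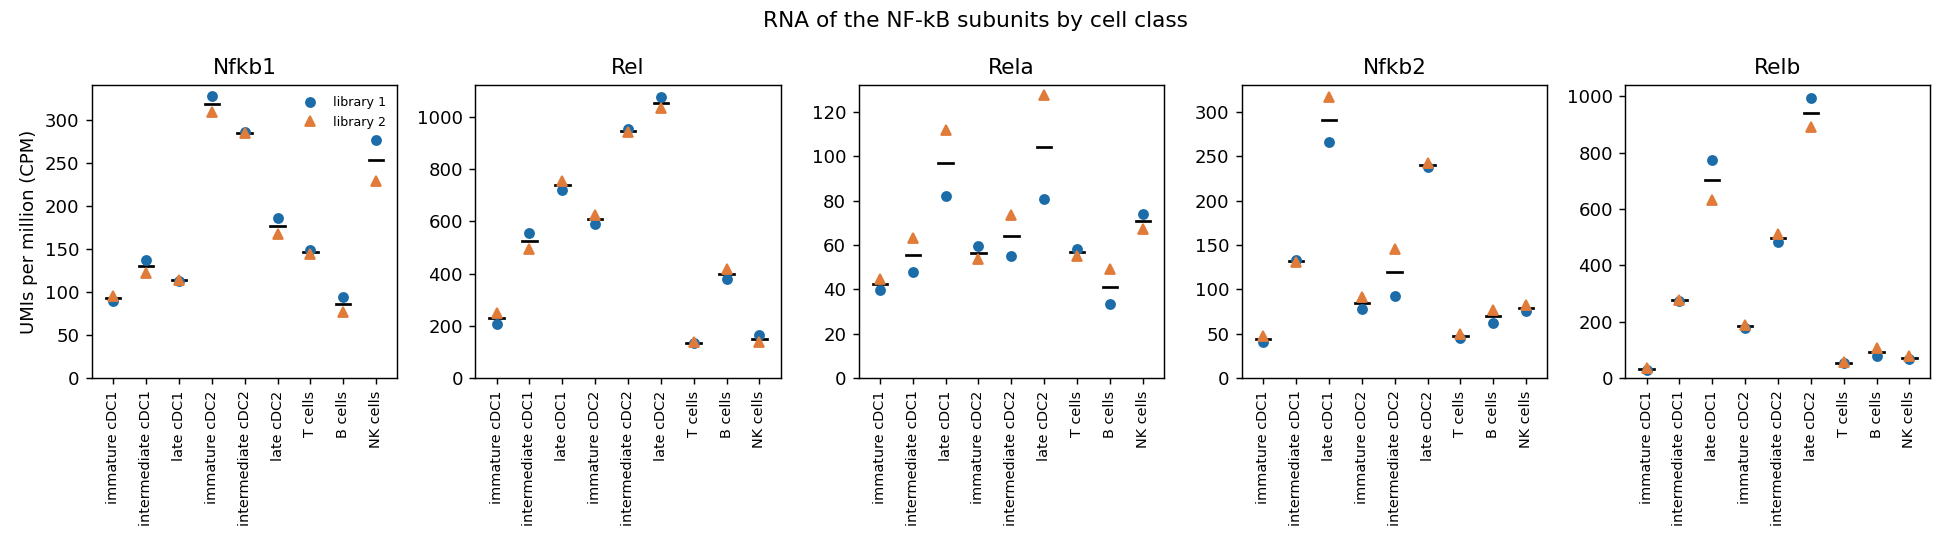
RNA level of the 5 subunits in CPM (linear axes that start at 0 and differ between panels) in 9 cell classes, with a circle for library 1, a triangle for library 2 and a bar for their mean. Relb and Nfkb2 climb through the 3 cDC1 classes, Relb to 772 and 631 CPM in late cDC1, while Nfkb1 is highest in immature cDC2 at 328 and 308 CPM.

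Most of the set rose in late against immature cDC1. Of the 34 members 29 were higher and none lower, where 24.3% of all tested genes were higher and 48.6% passed in either direction. DESeq2 called 30. The median log2 change over the 34 members was 2.0, against -0.11 over all tested genes. Of all called genes 50.0% were higher, or 37.8% with library totals alone as scaling. All 5 subunits, all 6 I kappa B genes, all 10 adaptors and ligases, 3 of 6 kinases and 5 of 7 feedback genes were higher. The 7 red pulp macrophage markers summed to 214 and 198 CPM in late and 38.5 and 45 in immature cDC1, with C1qc at 0 in late cDC1, and the part of such RNA was not tested. The 5 members that did not pass were Chuk (-0.02), Ikbkg (0.71), Ikbke, Cyld (0.20) and Otulin (0.16). Every call on a member reported here had the same direction in both libraries.

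The rise was then divided into steps. At the first step, intermediate against immature cDC1, 25 members were higher and none lower, where 14.1% of tested genes were higher, 8.52% lower and 22.6% passed. The members' median log2 change was 1.03 against -0.02 over all genes, and 62.3% of all calls were higher, or 48.0% with library totals alone. Beside this step the 6 B cell markers summed to 70.3 and 96.1 CPM in intermediate cDC1 (immature 19.4 and 14.1), the 8 T cell markers to 102 and 270.1 (immature 13.2 and 13.9) and the 4 erythroid markers to 1207 and 502 (immature 344 and 439), with no marker of these lists at 0. Without cells holding lymphocyte UMIs 22 members passed, beside 1826 genes in all, and the part of erythroid RNA was not tested. At the second, late against intermediate cDC1, 22 members were higher and none lower, where 16.6% were higher, 15.4% lower and 32.0% passed. Their median was 0.96 against -0.07, and 51.8% of all calls were higher, or 39.9% with library totals alone. The steps share the intermediate class, and the difference between them was not itself tested.

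Among the I kappa B genes, Bcl3, a nuclear I kappa B that binds p50 and p52, passed at the first step. Its level was 4.44 and 4.86 CPM in immature, 31.8 and 33.1 in intermediate and 36.2 and 45.4 in late cDC1. The first step was log2 2.88 (SE 0.18, adjusted p = 2.2e-12) and the second log2 0.49 (SE 0.23, adjusted p = 0.110). Nfkbia, the main cytoplasmic inhibitor, stood at 198 and 204 CPM in immature, 953 and 878 in intermediate and 1322 and 1186 in late cDC1 and passed at both steps, with log2 2.28 (SE 0.11) and 0.60 (SE 0.11). Its libraries did not overlap between the 3 classes.

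The other inhibitors had smaller or more even steps. Nfkbie, I kappa B epsilon, rose by log2 1.33 (SE 0.12) and then 1.43 (SE 0.14), from 33 and 32.8 to 192 and 185 CPM. Nfkbib, I kappa B beta, rose by 1.09 and 0.97, and Nfkbiz, a nuclear coactivator, by 0.91 and 0.52. The second step of Nfkbiz rested on 73.4 and 77 against 77.9 and 115 CPM, with the late value of library 1 close to the intermediate ones, and its call was lost under 7 alternatives, at 0.19 with doublets kept. Nfkbid, another nuclear I kappa B, was called only over the whole range (log2 0.45, SE 0.19, adjusted p = 0.0494), a call lost under 9 alternatives.

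The kinases were called at different steps. Map3k14, which encodes NIK, went from 26.8 and 30.9 to 156 and 125 and then 212 and 174 CPM, with log2 2.35 (SE 0.13, adjusted p = 2.1e-13) at the first step and log2 0.61 (SE 0.16, adjusted p = 0.00385) at the second. Ikbkb, the catalytic kinase of the canonical branch, stood at 53.5 and 55.5 CPM in immature, 53.8 and 57.8 in intermediate and 181 and 200.3 in late cDC1. Its second step was log2 1.92 (SE 0.14, adjusted p = 7.2e-11), while the first was log2 0.13 (SE 0.12, adjusted p = 0.522). The other core parts of IKK did not pass at either step. Chuk, the kinase that acts on Nfkb2, stood at 50.4 and 51.6 CPM in immature, 49.5 and 45.7 in intermediate and 47.3 and 38.4 in late cDC1. The scaffold Ikbkg was at 12 and 12.7 CPM in immature, 11 and 11.2 in intermediate and 19.5 and 15.1 in late cDC1.

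Tbk1, a kinase of innate sensing pathways, reached 54.3 and 51.2 CPM in late cDC1 from 22 and 21.4 in immature cDC1 (log2 1.51, SE 0.23, adjusted p = 6.8e-06). Its call at the first step was lost under 9 alternatives. Ikbke had 8 and 9 UMIs among all immature cDC1 and 1 and 0 among late cDC1, too few for a fold.

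The adaptors and ligases held several of the largest changes. Traf1, an adaptor of TNF receptor complexes and a classic NF-kB target, went from 88.3 and 112 through 718 and 675 to 1745 and 1747 CPM (log2 4.37, SE 0.11, adjusted p = 1.0e-21). Birc2, which encodes the ubiquitin ligase cIAP1, went from 25.4 and 25.9 through 94.8 and 97.5 to 426 and 372 CPM, with log2 2.0 (SE 0.12) and then 2.19 (SE 0.13), the largest second step of the set. Its neighbour and paralogue Birc3, cIAP2, rose by log2 2.88 (SE 0.13) from immature to late cDC1, from 37 and 41 to 248 and 239.9 CPM. The sources used here do not say how reads shared by these similar genes were assigned.

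Traf3 and Traf2, which with the cIAPs keep NIK low, rose as well. Traf3 stood at 9.49 and 9.77 CPM in immature, 15.3 and 16.8 in intermediate and 48.7 and 60.6 in late cDC1, with the larger part of its rise in the second step (log2 1.92, SE 0.23, adjusted p = 2.4e-07). Traf2 changed by log2 0.98 (SE 0.17) and 0.99 (SE 0.22), and Traf6, used by Toll-like and IL-1 receptors, by 0.69 and 1.22. Tank, a partner of TRAFs and of TBK1, went from 26.4 and 26.1 through 122 and 104 to 256 and 220.1 CPM (log2 3.41, SE 0.14, adjusted p = 9.8e-17). Traf5 was called at the second step alone, at 24.5 and 14.5 against 40.4 and 33.8 CPM (log2 1.11, SE 0.28, adjusted p = 0.00318).

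Malt1 and Bcl10, partners in a complex that carries signals to IKK, were called at the first step alone. Malt1 went from 104 and 113 to 317 and 317 CPM (log2 1.64, SE 0.11, adjusted p = 5.5e-12) and stood at 348 and 297 in late cDC1 (log2 0.17, SE 0.12, adjusted p = 0.328 at the second step). Bcl10 went from 62.6 and 61.1 to 109 and 105 and then 109 and 94.3 CPM, with log2 0.89 (SE 0.11, adjusted p = 3.5e-07) at the first step. The late libraries of Malt1 lay on either side of the intermediate ones, and those of Bcl10 just below or within them.

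Feedback genes differed in where they rose. Tnip3, which encodes an A20-binding inhibitor, had 1.59 and 1.92 CPM in immature cDC1, from 73 and 121 UMIs. It had 42.2 and 40.6 CPM in intermediate cDC1. Being close to 0 in immature cDC1, Tnip3 passed the filter on low counts through other classes. Calls on it against immature cDC1, counted above, therefore carry no weight. In late cDC1 it stood at 33.4 and 55.9 CPM, on both sides of the intermediate libraries. Tnfaip3, which encodes the deubiquitinase A20, rose at both steps, from 26.7 and 27 through 104 and 77 to 186 and 189.8 CPM (log2 3.05, SE 0.15, adjusted p = 3.4e-15). Tnip1, another A20 partner, changed by 1.86 (SE 0.15) at the first step and 0.46 (SE 0.19) at the second, where it did not pass.

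Tnfaip2 and Tnip2 changed by 0.10 (SE 0.14) and -0.03 (SE 0.20) at the first step, where they did not pass, and rose at the second, by log2 1.05 (SE 0.19) and 1.16 (SE 0.27). Of the deubiquitinases that trim linear or K63-linked chains, Cyld stood at 80.2 and 84.3 CPM in immature, 68.5 and 67.2 in intermediate and 73.7 and 86.2 in late cDC1. Otulin was at 65.5 and 68.7 CPM in immature, 78.9 and 84 in intermediate and 58.4 and 68.7 in late cDC1, and its first step of log2 0.37 (SE 0.12, adjusted p = 0.0316) was lost under 4 alternatives.

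**Figure D2:**
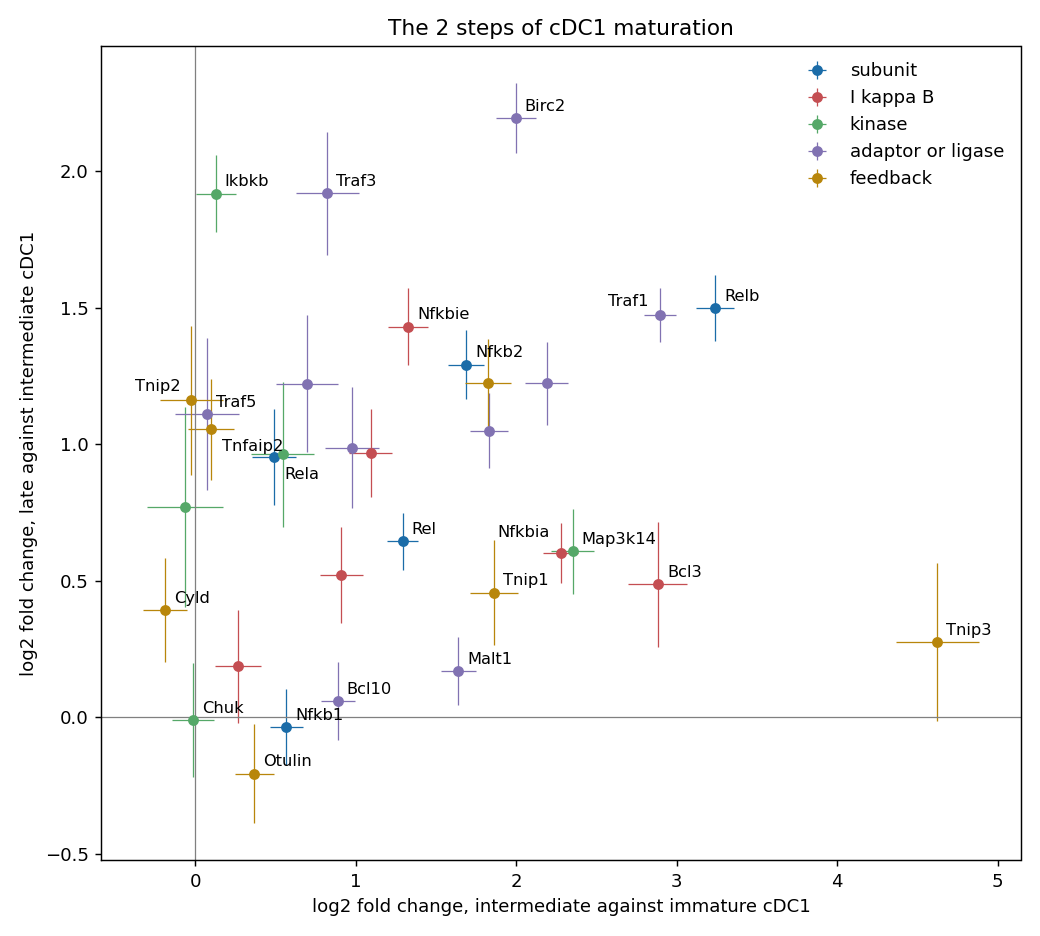
Each point is a member, with its log2 fold change at the first step (intermediate against immature cDC1) on the horizontal axis, at the second step (late against intermediate cDC1) on the vertical axis, bars of 1 SE and colour by role. Ikbke is left out. Ikbkb lies high on the left (first 0.13, second 1.92), Malt1, Bcl3 and Tnip3 lie low on the right, and Relb and Birc2 are high on both axes.

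Finer bins of Ccr7, without the Fscn1 gate, showed where along the marker each member was raised. The bins held 381 and 443 cells of the cDC1 antibody gate at 1 Ccr7 UMI, 69 and 108 at 2 to 4, 44 and 69 at 5 to 9, 73 and 67 at 10 to 19, and 103 and 119 at 20 or more. Nfkbia was at 198 and 204 CPM with no Ccr7, 252 and 272 at 1 UMI and 679 and 703 at 2 to 4. Relb was at 101 and 109 CPM at 2 to 4 Ccr7 UMIs, 298 and 391 at 5 to 9 and 693 and 613 at 20 or more. Each bin given was above the one before it in both libraries.

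Birc2 climbed from 2 to 4 Ccr7 UMIs on, and Ikbkb mainly in the higher bins. Birc2 was at 24.8 and 31.7 CPM at 1 Ccr7 UMI, 62.2 and 54.3 at 2 to 4, 111 and 138 at 5 to 9 and 301 and 318 at 20 or more. Ikbkb was at 44.9 and 69.9 CPM at 5 to 9 UMIs, beside 53.5 and 55.5 with none, at 108 and 102 at 10 to 19 and at 132 and 155 at 20 or more. The libraries parted for Malt1, whose highest value was 438 CPM at 20 or more UMIs in library 1 and 436 at 10 to 19 in library 2. Chuk had 50.4 and 51.6 CPM with no Ccr7 and 47.4 and 34 in the top bin.

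**Figure D3:**
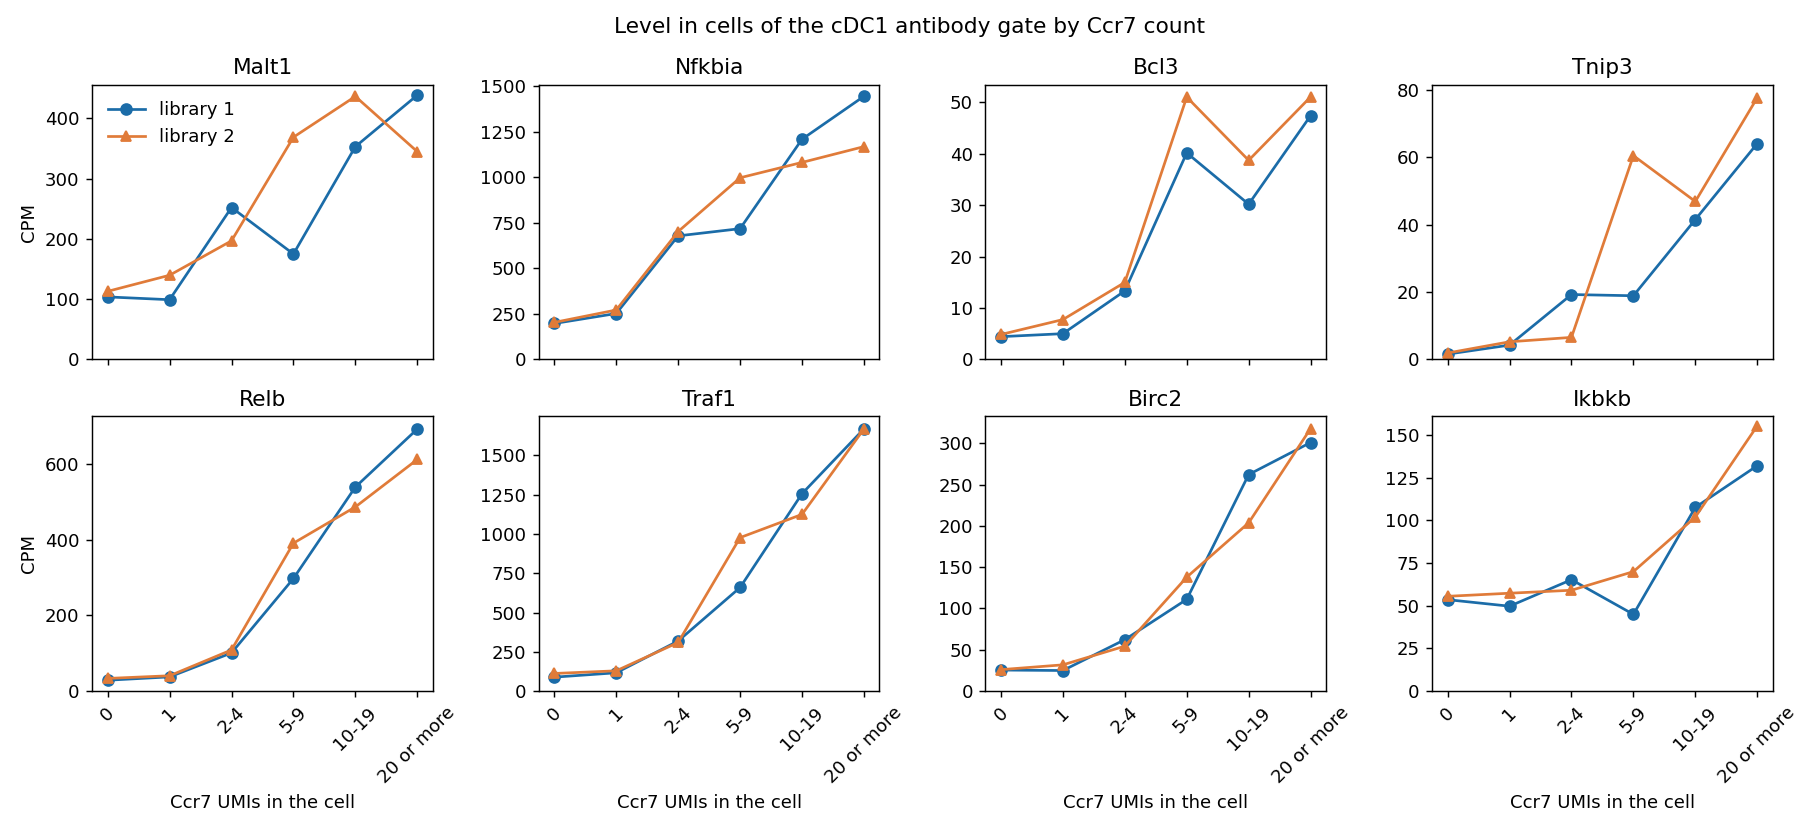
RNA level in CPM (linear axes from 0) of 8 members in cells of the cDC1 antibody gate, by the number of Ccr7 UMIs in the cell, with a line for each library. Nfkbia has left its base level by 2 to 4 UMIs. Ikbkb, at 53.5 and 55.5 CPM with no Ccr7, is at 65.2 and 59.0 at 2 to 4 UMIs. At 5 to 9 it is at 44.9 and 69.9, on both sides of that base.

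Shares of cells with a UMI were read with each cell thinned to 3000 RNA UMIs, which left out 260 and 454 immature, 13 and 21 intermediate, 3 and 12 late cDC1 and 387 and 367 T cells. Relb was seen in 8.11% and 8.97% of immature, 46.4% and 53% of intermediate and 88% and 83.2% of late cDC1. Unthinned, the shares were 20.8% and 21.5%, then 72.6% and 70.8%, then 99% and 96%. T cells, at 10.9% and 17.5% thinned and 15.7% and 14.6% unthinned and with a median depth of 3021 and 2820 UMIs, are no blank for this gene, since Relb was called higher in T cells than in immature cDC1 (log2 0.60, SE 0.14). Ikbkb was seen in 15.7% and 14% of intermediate and 43% and 46.9% of late cDC1 thinned, and in 36.3% and 36.4% and 68.9% and 72% unthinned. Tnip3 was seen in 13.9% and 10.7% of intermediate and 9.00% and 8.85% of late cDC1 thinned, and in 19.6% and 18.6% and 12.6% and 12% unthinned, so at this depth most cells had no UMI of it.

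Among immature cDC1, cells with Egr3 RNA, an early response transcription factor, were compared with cells without it. Cells with at least 2 Egr3 UMIs numbered 1929 and 4247, against 2083 and 1967 with none. Of the 34 members 17 were higher and none lower in Egr3-high cells, where 13.6% of 10891 tested genes were higher, 11.6% lower and 25.3% passed. The median log2 change was 0.25 over the members and -0.01 over all genes. At 1, 3 or 8 Egr3 UMIs as the threshold, 13, 18 and 19 members were called, beside 1798, 3303 and 3625 genes in all.

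Tnfaip2, a TNF-induced gene, led with 23.6 and 24.9 CPM in Egr3-zero, 30.1 and 39.5 in cells with 1 UMI and 65.8 and 69.1 in Egr3-high cells (log2 1.49, SE 0.07, adjusted p = 2.6e-14). Nfkbid, known as a gene that antigen receptor or Toll-like receptor signals induce, went from 29.8 and 37.1 through 42.7 and 51.4 to 71 and 82.1 CPM (log2 1.22, SE 0.10, adjusted p = 8.9e-10). In intermediate against immature cDC1 the changes of these genes were 0.10 (SE 0.14) and 0.26 (SE 0.14), and neither passed there. Malt1 went from 64.1 and 67 to 152 and 139 CPM (log2 1.17, SE 0.10, adjusted p = 8.9e-10), Rel from 134 and 153 to 288 and 304 (log2 1.07, SE 0.08, adjusted p = 2.1e-10) and Map3k14 from 21.5 and 22.9 to 34.3 and 35.4 (log2 0.68, SE 0.12, adjusted p = 1.0e-04).

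Several genes with large changes in late cDC1 had small ones here. Relb was at 26.3 and 28.8 CPM in Egr3-zero and 30.1 and 36.9 in Egr3-high cells (log2 0.32, SE 0.12, adjusted p = 0.0455), a call lost under 7 alternatives. Birc2 changed by 0.07 (SE 0.10), Bcl3 by -0.07 (SE 0.17) and Tnip3 by 0.18 (SE 0.33), none of which passed. The comparisons share immature cDC1 of the same libraries. Chuk (0.22, SE 0.06), Cyld (0.36, SE 0.10) and Tnip2 (0.39, SE 0.11) were higher in Egr3-high cells, where their values at the first maturation step were -0.01, -0.19 and -0.03. The call of Chuk was lost under 5 alternatives and that of Tnip2 under 2. Egr1, another early response gene, was at 113 and 161 CPM in Egr3-zero against 351 and 408 in Egr3-high cells, Fos at 1061 and 1080.3 against 1325 and 1227, and median depth at 9060 and 7666 against 9264 and 8345 UMIs. Their part in the result was not tested.

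Immature cDC2 held more RNA of most members than immature cDC1. In immature cDC1 against immature cDC2, 25 members were lower in cDC1 and 1 (Tnip2, 0.79, SE 0.15) higher, where 47.0% of tested genes passed, 23.3% lower and 23.6% higher. The members' median was -0.94 against 0.02 over all genes, and 50.3% of all calls were higher, or 37.0% with library totals alone. Bcl3 was at 30.9 and 31.5 CPM in immature cDC2 (log2 -2.62, SE 0.13, adjusted p = 4.3e-15 for cDC1 against cDC2), Relb at 178 and 188 (log2 -2.45, SE 0.11, adjusted p = 5.7e-16) and Malt1 at 555 and 567 (log2 -2.26, SE 0.10, adjusted p = 7.0e-16). Traf1 (-1.81) was also among the largest differences. Tnip3 (-2.26) was close to 0 in immature cDC1, so its difference carries no weight. The mature DC marker sum, given above, was higher in immature cDC2, as were the 4 neutrophil markers (1774 and 1383 CPM, against 114 and 101 in immature cDC1) and the 6 nonclassical monocyte markers (1344 and 1179, against 699 and 731), and their part in these differences was not tested. With only cells of 4000 to 12000 UMIs in every class, 27 members passed, beside 3742 genes in all.

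Relb, Bcl3, Traf1 and Nfkbia led the first step of cDC2. In intermediate against immature cDC2, 15 members were higher and none lower, where 3.38% of tested genes were higher, 1.55% lower and 4.94% passed. The members' median was 0.42 against -0.02 over all genes. Relb rose to 483 and 511 CPM (log2 1.46, SE 0.11, adjusted p = 5.6e-09), Bcl3 to 59.3 and 77.8 (log2 1.15, SE 0.16, adjusted p = 2.0e-05), Traf1 to 737 and 853 (log2 1.09, SE 0.10, adjusted p = 3.2e-08) and Nfkbia to 703 and 798 (log2 1.07, SE 0.11, adjusted p = 2.8e-07). Tnip2 was also higher (0.89, SE 0.25). The neutrophil markers stood at 33.5 and 24 CPM in intermediate cDC2, below the immature class and with Retnlg and Ly6g at 0, and their part was not tested. The count was 9 among cells of 4000 to 12000 UMIs (263 genes in all) and 10 with no replicate block (384 genes in all).

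In late against immature cDC2, 21 members were higher and 1 lower, where 10.4% were higher, 9.01% lower and 19.4% passed. The members' median was 1.02 against -0.17 over all genes. Birc2 went from 77 and 69.9 to 508 and 526 CPM (log2 2.94, SE 0.14, adjusted p = 1.5e-14), Nfkbia from 378 and 350.0 to 2283 and 1581 (log2 2.53, SE 0.12, adjusted p = 7.3e-15) and Relb from 178 and 188 to 992 and 892 (log2 2.49, SE 0.13, adjusted p = 6.4e-14). Traf1 rose by log2 2.23 (SE 0.11) and Birc3 by 1.85 (SE 0.18). Nfkb1 was the member that fell, from 328 and 308 through 286 and 284 to 186 and 167 CPM (log2 -0.73, SE 0.15, adjusted p = 9.0e-04), and its late libraries lay below all immature and intermediate ones. Nfkb2, Rel and Rela rose by 1.63 (SE 0.17), 0.92 (SE 0.11) and 1.0 (SE 0.24). The late class held 55 and 60 cells. From immature to late cDC2 the neutrophil markers went from 1774 and 1383 to 56.5 and 55.7 CPM, with Retnlg and Ly6g at 0 in late cells, and the 6 NK cell markers from 9.58 and 58.6 to 0 and 247, with Eomes and Klra8 at 0, and their part was not tested.

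The change from immature to late differed between the lineages for 18 members, all with the more positive change in cDC1, where 7.37% of tested genes passed, 5.77% in that direction and 1.6% in the other. The median difference was 1.01 over the members and 0.11 over all genes. Tnip3 was 1 of the 18, but it was close to 0 in immature cDC1, so its call carries no weight. Late cDC2 held 247958 and 251127 RNA UMIs in all, so members of low level rest on few UMIs there. Of the others the largest differences were in Relb (log2 2.25, SE 0.17, adjusted p = 3.9e-10), Traf1 (log2 2.13, SE 0.14, adjusted p = 4.2e-11), Map3k14 (log2 1.88, SE 0.25, adjusted p = 6.1e-06) and Traf3 (log2 1.82, SE 0.33, adjusted p = 4.8e-04). Nfkb1, which rose in cDC1 and fell in cDC2, differed by log2 1.26 (SE 0.20, adjusted p = 9.9e-05). Among cells of 4000 to 12000 UMIs the difference was 2.38 for Relb and 1.15 for Nfkb1, and 19 members passed, beside 572 genes in all. Nfkbia (0.35, SE 0.16), Nfkbiz (0.29, SE 0.23), Tnfaip2 (-0.04, SE 0.28) and Rela (0.44, SE 0.26) did not pass.

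**Figure D4:**
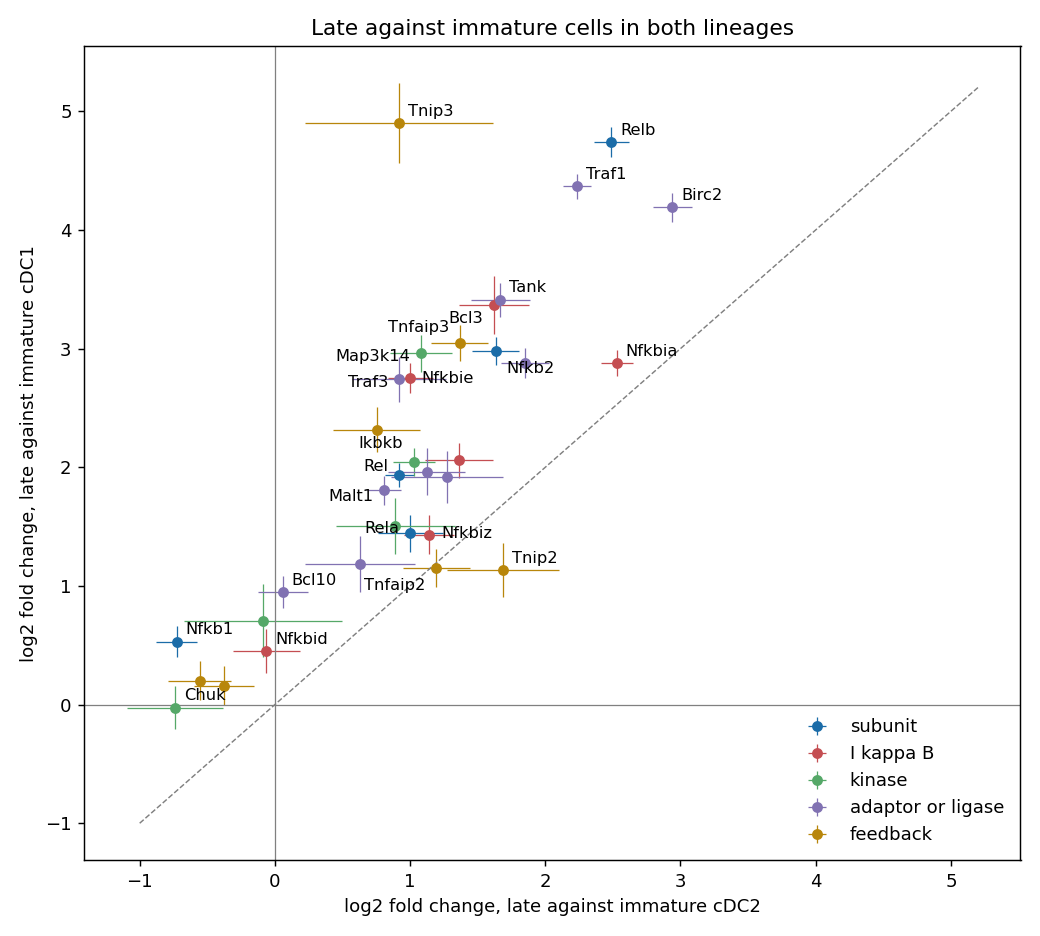
Each point is a member, with the log2 fold change of late against immature cells in cDC2 on the horizontal and in cDC1 on the vertical axis, bars of 1 SE and colour by role, and a dashed line where the changes are equal. Ikbke is left out. Most points lie above the line, Tnip2 lies below it, and Nfkb1 is above 0 in cDC1 (0.53) and below 0 in cDC2 (-0.73).

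Late cells of the lineages were compared directly. In late cDC1 against late cDC2, 8 members passed, 4 in each direction, where 6.97% of tested genes were higher, 4.83% lower and 11.8% passed. The members' median was 0.14 and that of all genes 0.11, and 59.1% of all calls were higher, or 36.0% with library totals alone. Malt1 was lower in late cDC1, at 348 and 297 against 875 and 928 CPM (log2 -1.26, SE 0.14, adjusted p = 2.1e-07), as were Nfkbiz (-0.94, SE 0.21), Bcl3 (-0.87, SE 0.28) and Nfkbia (-0.39, SE 0.12). Tnip3 (1.72, SE 0.57), Nfkbib (0.76, SE 0.23), Nfkb2 (0.51, SE 0.16) and Traf1 (0.32, SE 0.10) were higher, and each of these 4 lost its call under 6 or more alternatives. Of the lower members Bcl3 lost its call under 3, Nfkbia under 2 and Nfkbiz under 1, and among cells of 4000 to 12000 UMIs Nfkbia was at -0.018. Relb, at 772 and 631 against 992 and 892 CPM, had a difference of -0.19 (SE 0.13) with a 95% interval from -0.45 to 0.06. A further 206 and 227 late cells carried neither XCR1 nor CD172a antibody, and had Relb at 886 and 844 and Birc2 at 525 and 494 CPM.

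NK cells had the highest Tnfaip3 and Nfkbiz of the tested classes. In NK cells against immature cDC1, 19 members were higher and 5 lower, where 24.9% of tested genes were higher, 27.6% lower and 52.4% passed. The members' median was 0.55 against -0.06, and 47.4% of all calls were higher, or 64.1% with library totals alone. The deubiquitinase Tnfaip3 stood at 595 and 471 CPM in NK cells (log2 4.01, SE 0.13, adjusted p = 1.5e-19) and Nfkbiz at 533 and 491 (log2 3.30, SE 0.12, adjusted p = 1.5e-18), both above every DC class. Nfkbia was at 2015 and 1809.8 CPM (log2 2.96, SE 0.11, adjusted p = 4.6e-18) and Bcl3 at 47.6 and 37.6 (log2 2.88, SE 0.22, adjusted p = 1.3e-11). Ikbke, 1 of the 19, stood at 16.3 and 13.1 CPM, from 13 and 15 UMIs, and no fold is given because its base in immature cDC1 was 8 and 9 UMIs. It entered the test through T and NK cells, so its call carries no weight. Tnfaip2, Tnip2, Chuk, Rel and Cyld were lower, with log2 -3.50, -2.62, -1.38, -0.89 and -0.46, the call of Cyld being lost under 3 alternatives.

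T cells had 16 members higher and 4 lower, where 29.9% of tested genes were higher, 32.4% lower and 62.3% passed. In either direction the members' share was near that of all genes, while by direction a larger share was higher and a smaller share lower. Their median was 0.34 against -0.02, and 48.1% of all calls were higher, or 60.2% with library totals alone. One of the 16 was Ikbke, at 32.5 and 27.9 CPM against 0.174 and 0.143 in immature cDC1. Since it entered the test through T and NK cells and had 8 and 9 UMIs in immature cDC1, its call carries no weight and no fold is given. Tnfaip3 (333 and 259 CPM, log2 3.26, SE 0.12), Birc2 (log2 1.86, SE 0.12), Nfkbia (1.78, SE 0.11) and Nfkbiz (1.77, SE 0.12) were also higher. Tnfaip2 at 4.11 and 4.81 CPM (log2 -3.61, SE 0.23, adjusted p = 2.2e-13), Tnip2 (-1.89), Chuk (-1.24) and Rel (-0.96) were lower. The 4 neutrophil markers summed to 1314 and 19.3 CPM in the T cell class against 114 and 101 in immature cDC1, with Ly6g at 0 in T cells. The 4 erythroid markers summed to 613 and 46.7 against 344 and 439. The part of such RNA was not tested.

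B cells had 17 members higher and 2 lower, where 16.9% of tested genes were higher, 17.7% lower and 34.7% passed. Their median was 0.68 against -0.03, and 48.9% of all calls were higher, or 33.5% with library totals alone. Bcl3 (log2 1.79, SE 0.38), Relb (1.76, SE 0.18), Tank (1.76, SE 0.20), Birc2 (1.74, SE 0.18) and Nfkbie (1.45, SE 0.17) had the largest rises. The 4 plasma cell markers, Ighm among them, summed to 45414 and 26450.4 CPM in the B cell class against 422 and 411 in immature cDC1, and the 4 erythroid markers to 42.4 and 2167 against 344 and 439, and their part was not tested. Rel, at 381 and 416 CPM, was higher than in immature cDC1 (log2 1.02, SE 0.11, adjusted p = 2.2e-08), where it was -0.96 in T and -0.89 in NK cells against the same immature cDC1. Tnfaip2 (-2.0) and Chuk (-1.12) were lower. Median depth was between 2056 and 3021 UMIs in these classes, against 8120 and 9202 in immature cDC1. Among cells of 4000 to 12000 UMIs 20 members were called in T cells and 11 in B cells, beside 4356 and 1387 genes in all. Too few NK cells were left to test.

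**Figure D5:**
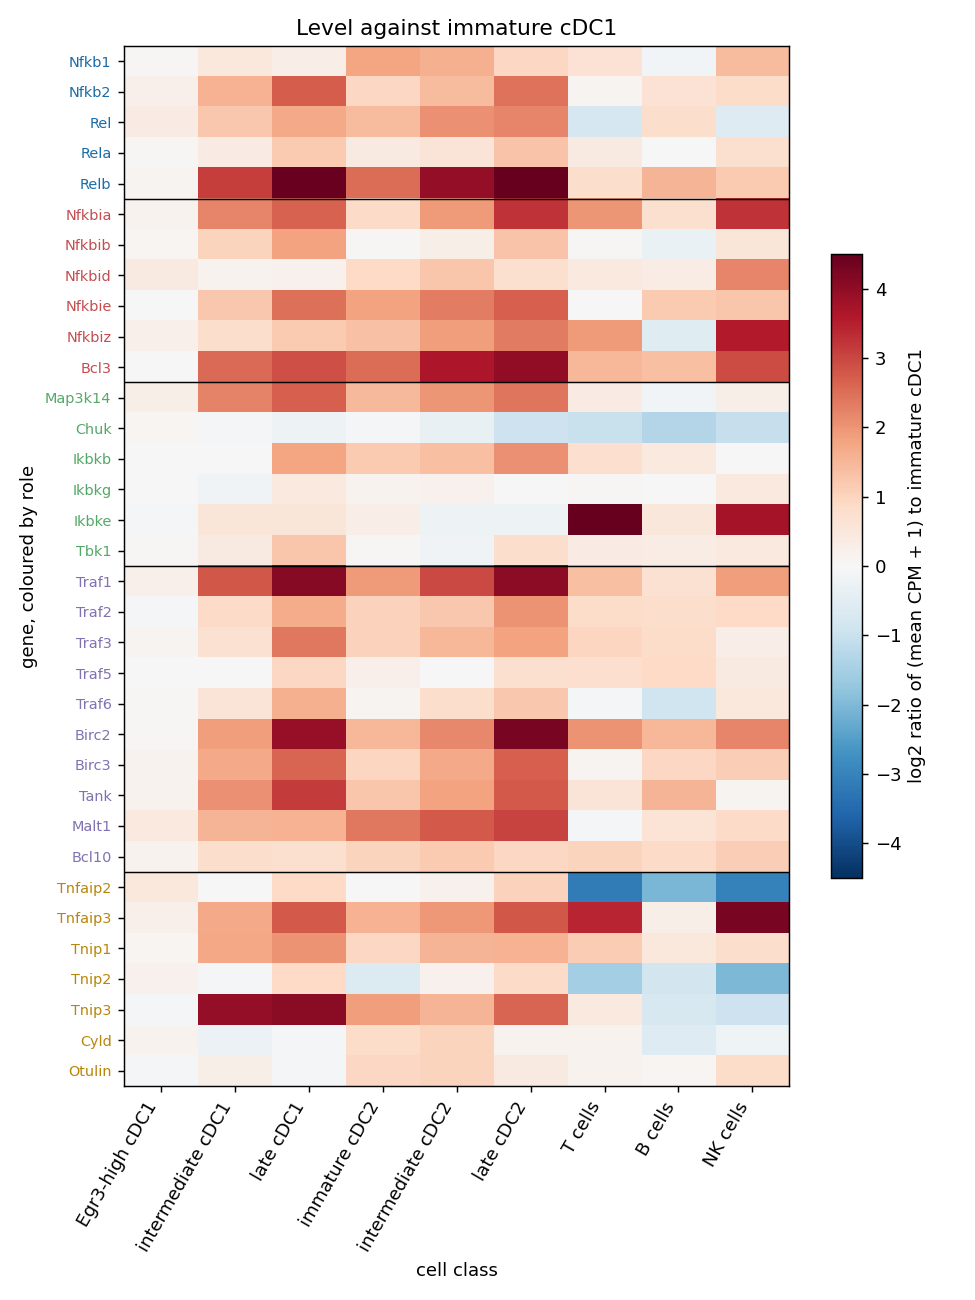
Colour gives the log2 ratio of mean CPM plus 1 to that of immature cDC1 for the 34 members (rows, grouped by role) in 9 classes (columns), red higher and blue lower, with larger ratios shown in the darkest shade. Relb, Traf1 and Birc2 are dark in both late DC classes, Tnfaip3 in T and NK cells, Ikbke in T and NK cells alone, and Tnfaip2 is blue in the 3 lymphocyte classes.

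Of 22 receptors 17 were tested in late against immature cDC1, and 7 were higher and 4 lower, or 64.7% in all, where 24.3% of all tested genes were higher, 24.3% lower and 48.6% passed. Their median log2 change was 0.03 against -0.11 over all genes. Tnfrsf4, which encodes OX40, went from 1.0 and 1.70 to 534 and 398 CPM, and Tnfrsf9, 4-1BB, reached 19.5 and 23.3 CPM. Both were close to 0 in immature cDC1 and passed the filter on low counts through other classes. Their calls, counted above, carry no weight, and no fold is given. Cd40, a main noncanonical receptor of DCs, went from 24.3 and 26.9 to 273 and 359 CPM (log2 3.86, SE 0.17, adjusted p = 1.3e-16). The Toll-like receptors Tlr3, Tlr11 and Tlr12 and the TNF receptor Tnfrsf1a were lower, Tlr3 with log2 -2.10 (SE 0.23). Ltbr did not pass (0.03, SE 0.31).

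Of 13 ligands 9 were tested, and 5 were higher and 2 lower, beside the same 24.3% of all genes in each direction. Their median was 0.88. Cd70, a ligand of CD27, had 2 and 8 UMIs in immature cDC1 and 34.8 and 65.2 CPM in late cDC1, so no fold is given. Lta, lymphotoxin alpha, reached 27.8 and 21 CPM. It too was close to 0 in immature cDC1, so no fold is given. Cd70 and Lta passed the filter on low counts through other classes, so calls on them, counted above, carry no weight. Tnfsf9, the 4-1BB ligand, went from 7.88 and 10.4 to 55.7 and 71 CPM (log2 3.03, SE 0.25, adjusted p = 1.5e-10). Il1b and Il18 were lower, with log2 -1.80 (SE 0.19) and -1.53 (SE 0.36).

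Of genes that carry signals from receptors to IKK all 22 were tested. In late against immature cDC1, 5 were higher and 3 lower, with a median log2 change of 0.26. The 36.4% called were a smaller share than the 48.6% of all tested genes. Map3k8, the kinase TPL2 (2.44, SE 0.17), and the ubiquitin ligase Peli1 (2.13, SE 0.11) were higher, and Traf4 was lower (-1.48, SE 0.49). Myd88, the adaptor of most Toll-like receptors, was also lower (-1.03, SE 0.31). Of 21 tested textbook targets 18 were higher and 1 (Sod2, -0.68, SE 0.16) lower, where 24.3% of all genes passed in each direction. Their median log2 change was 2.50. Ccl22 and Marcksl1 of this list are also among the mature DC markers. Ccl5 (7.18, SE 0.26), Ccl22 (6.50, SE 0.24) and Il12b (6.42, SE 0.35) changed most. Their levels in immature cDC1 are not given, so these folds may rest on bases close to 0. In Egr3-high against Egr3-zero cells 15 of these targets were higher and 1 (Ccl5, -0.66, SE 0.23) lower, where 13.6% of all genes were higher and 11.6% lower.

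Surface proteins of the same cells rose for CD83, CD274, CD86 and CD95. Of 170 antibodies tested in late against immature cDC1, 21 (12.4%) were higher and 19 (11.2%) lower, or 23.5% in all. The higher ones included lymphocyte proteins, namely IgD (1.46), CD8b (1.23), TCRb (1.13), B220 (1.03) and TCRgd (0.70), and the part of lymphocyte signal in the antibody changes was not tested. CD83, a maturation marker encoded by an NF-kB target, went from 2.04 and 2.33 through 8.43 and 8.34 to 13.9 and 13.2 per 10000 antibody UMIs (log2 3.07, SE 0.28, adjusted p = 1.9e-06). The rat IgG1 lambda isotype control stood at 2.67 and 6.75 in immature and 3.88 and 1.81 in late cDC1. The immature base of CD83 thus lay within the isotype range, which leaves the size of its fold uncertain. CD274, PD-L1, went from 14.8 and 20.6 through 29.4 and 34.8 to 61.4 and 66.2 (log2 2.29, SE 0.21, adjusted p = 1.8e-06). CD86 went from 107 and 103 through 214 and 216 to 234 and 219 (log2 1.55, SE 0.15, adjusted p = 2.6e-06). Cd86 RNA changed by 0.45 (SE 0.09) at the first step and -0.69 (SE 0.12) at the second.

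The death receptor CD95 went from 6.63 and 6.07 through 7.47 and 4.59 to 19.8 and 13.3 (log2 1.82, SE 0.26, adjusted p = 1.4e-04). In library 2 its immature value lay below the 6.75 of the rat IgG1 lambda isotype control. CD54, encoded by Icam1, was called higher (log2 0.31, SE 0.09, adjusted p = 0.026), but per 10000 antibody UMIs it stood at 1948 and 2186 in immature and 1718 and 2059.5 in late cDC1, so its direction turns with the scaling. The antibody to OX40 (CD134) did not pass (log2 0.73, SE 0.32, adjusted p = 0.114), at 0.554 and 0.737 in late cDC1, within the range of the isotype controls. Those to 4-1BB did not pass either, with log2 0.23 (SE 0.31, adjusted p = 0.655) for CD137 and log2 0.43 (SE 0.36, adjusted p = 0.466) for another antibody. The antibodies to CD80 (-0.08), CD270 (-0.20), CD135 (-0.26), GITR (CD357, 0.16), CD27 (0.22) and DR3 (0.31) did not pass. These changes are relative to TMM scaling, and per 10000 antibody UMIs CD357 stood at 10.2 and 9.42 in immature and 8.80 and 7.37 in late cDC1. By that measure CD270 stood at 133 and 140 in immature and 82.2 and 92.8 in late cDC1. CD80 stood at 75.0 and 66.5 in immature and 45.8 and 52.5 in late cDC1. No isotype control passed the test. With totals alone as scaling 66 antibodies were called.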

How the data were processed

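The authors deposited UMI counts, whole and not normalized, for each gene and antibody in each cell, and the file headers name Cell Ranger 3.1.0. STAR, Seurat 3.1.4 and mm10 are named in the submitters' processing notes. Libraries were told apart by barcode suffix. The labels tie no suffix to a replicate and no replicate to a mouse, so a p-value here reflects nothing beyond the spread of 2 libraries, possibly technical. Library 1 held 99617992 RNA UMIs in 13822 barcodes and library 2 129565040 in 17968. A cell was kept with 500 genes, 1000 RNA UMIs and a mitochondrial share below 10%, and Scrublet (scanpy 1.11.5) removed 546 (4.30%) and 1064 (6.24%) doublets. T cells had 3 or more UMIs of Cd3d, Cd3e and Cd3g together, B cells of Cd79a, Cd79b and Ms4a1, and NK cells of Ncr1, Klrb1c, Prf1 and Gzma, with at most 2 UMIs of the XCR1 and of the CD172a antibody.

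UMIs were added up within each class of each library and fitted in edgeR 4.0.16 (R 4.3.3; quasi-likelihood, TMM, filterByExpr, two-sided, Benjamini-Hochberg at 0.05 over all genes tested), with every class in the fit and library as replicate block, because the classes come from the same libraries. Over 36 pairs of classes the deviations of same-library sums correlated from -0.05 to 0.19, with a median of 0.04. Genes used as gates were not tested. CPM divide by all RNA UMIs of the class and log2 fold changes use TMM, so their ratios differ. In late against immature cDC1 the all-gene median was -0.11 with TMM and -0.34 with totals alone, and Nfkb1 was at 0.53 and 0.29. The SE comes from the log2 change and its F value. Summed counts cannot tell more expressing cells from more RNA per cell. Members and lists were chosen with earlier results of these data known. Values are given for the subunits, for up to 5 called members with the largest rise and fall per comparison, for up to 3 called genes of each other list and for all listed antibodies, and further members were named by role. The values of 1 gene of the signalling list are not reported here. Alternatives were DESeq2 1.42.0, other scalings, no filter, no block, only the classes compared, doublets kept, a UMI window, other gates and each library alone, which leaves no residual degrees of freedom and so gives values with no test.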

Additional observations from a re-analysis of the deposited data

Results flagged for a closer look

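The change from immature to late cells differed between cDC1 and cDC2 for 18 members by the interaction test of edgeR, each with the more positive change in cDC1. Among subunits the log2 difference was 2.25 for Relb, 1.35 for Nfkb2, 1.26 for Nfkb1 and 1.01 for Rel. Of the inhibitors it was 1.75 for Nfkbie and 1.75 for Bcl3, and of the kinases 1.88 for Map3k14 and 1.01 for Ikbkb. The adaptors and ligases gave 2.13 for Traf1, 1.82 for Traf3, 1.75 for Tank, 1.25 for Birc2, 1.03 for Birc3, 1.0 for Malt1 and 0.89 for Bcl10. Feedback genes gave 3.98 for Tnip3, 1.68 for Tnfaip3 and 1.57 for Tnip1. The same immature cells enter the direct comparison of immature cDC1 with immature cDC2, where Relb stood at log2 -2.45, Tnip3 at -2.26 and Nfkb1 at -1.66. With stricter antibody gates Bcl10, Birc3, Ikbkb and Traf3 did not pass, and Bcl10 was also lost with no filter and without cells holding lymphocyte UMIs.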

How the results depend on the processing

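Of 245 called member results 185 passed under every alternative with a test, 60 did not under at least 1, and 1 turned: Traf1 in late cDC1 against late cDC2 was -0.0693 with doublets kept. The cause was not tested. Stricter antibody gates lost 35 calls, the window of 4000 to 12000 UMIs 26 and no filter 22. Without replicate 1, 226 values stayed within 1 SD of the replicates, as did 229 without replicate 2. That SD comes from the same 2 single-library values, and the joint value mostly lies between them. These counts therefore cannot show how well the libraries agree. No direction changed in either library alone. With stricter antibody gates, and so fewer cells, genes called were 1513 for intermediate against immature cDC1, 1345 for late against intermediate cDC1, 2995 for late against immature cDC1, 300 for intermediate against immature cDC2, 388 for the lineage difference, 760 for late cDC1 against late cDC2 (3 members) and 1624 for Egr3-high cells. In the UMI window intermediate against immature cDC2 gave 263 genes and 9 members, late against immature cDC2 1173 genes, and B cells 1387 genes and 11 members. NK cells could not be run there. With only the classes compared in the fit, genes called were 936 for intermediate against immature cDC2 and 4975 for Egr3-high cells. With no replicate block, Egr3-high cells gave 1594 genes and late cDC1 against late cDC2 gave 4 members. That last comparison gave 4 members with RLE scaling, 5 with DESeq2 and 5 with no filter. With doublets kept the lineage difference had 433 genes, with antibody gates alone late against immature cDC2 had 3092, and with Egr3 of at least 1 UMI 1798 genes passed. Adding late cells without XCR1 or CD172a, an alternative chosen after seeing the data, as was Egr3 of at least 8, gave 4966 genes for late against intermediate cDC1. Totals alone as scaling gave 66 antibodies, moved the all-gene median of late against immature cDC1 from -0.11 to -0.34 and the share of calls that were higher from 50.0% to 37.8%, with the same direction for every called member.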
